A study of Mus musculus with 45 samples.

Results

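Shc3 and the D-type cyclin genes Ccnd1, Ccnd2 and Ccnd3 were examined for binding of Capicua (CIC), a transcriptional repressor, in cerebella of mice. These 4 genes stand among 21938 protein-coding genes of the annotation used. They were chosen by, and with knowledge of, the presence, position and within-list rank of their CIC peaks, so those values are given below as a description and without a test. A peak was assigned to a gene when its summit, the point of highest signal, fell inside the gene or no further than 50 kb from either end. This gave 8 peaks of 7196 in the 3 deposited lists, and they fell on 5 distinct sites.

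All mice were 10 weeks old. The labels give the strain as C57BL/6, and the methods name a C57BL/6J background for every line. CUT&RUN was performed on nuclei of the whole cerebellum. In CUT&RUN an antibody directs a nuclease to the DNA under its target protein, and the released fragments are sequenced. The CIC antibody was used in WT mice (n = 4), in Atxn1 154Q/2Q mice (154Q, n = 4), in Atxn1 154Q[V591A;S602D]/2Q mice (n = 3) and in Engrailed1-Cre;Cic fl/fl mice (CIC KO, n = 4). The 154Q allele encodes ATXN1 with an expanded polyglutamine tract and is carried opposite a normal allele. V591A and S602D are substitutions in the expanded ATXN1 that disrupt its contact with CIC. The normal allele opposite does not carry them, so its ATXN1 can still bind CIC. The comparison thus asks which CIC peaks of the expanded-allele mice are also present when expanded ATXN1 loses that contact. In CIC KO mice the deletion follows Engrailed1-Cre, so cells outside that lineage keep Cic. The libraries of each genotype were merged before peaks were called against the merged CIC KO libraries. Each list is therefore 1 observation per genotype, no spread between animals can be given, and a difference between lists has no replicate check.

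CIC is an HMG-box repressor that binds short AATG-containing sites, and receptor tyrosine kinase signalling through RAS and MAPK relieves its repression. SHC proteins are adaptors in the same route: they dock on activated receptors and recruit GRB2, which leads to RAS. Shc3 encodes the SHC adaptor found mainly in neurons. D-type cyclins bind CDK4 and CDK6 and drive cells from G1 into S phase by phosphorylation of the retinoblastoma protein, and they are long known as outputs of mitogen signalling.

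The CIC octamer was searched in the 4 spellings TGAATGAA, TGAATGGA, TCAATGAA and TCAATGGA on both strands. The sequences below come from the Shc3 and Ccnd1 sites that ranked high in 154Q, and they are shown because octamers were found at these sites and at none of the other 3. They are from GRCm38, plus strand, and capitals mark the octamer. The first pair lies at the Shc3 start site and under the strongest WT summit.
Shc3 octamer 1, chr13:51569400-51569429: tgctgtttgtgTGAATGAAagggccggcga
Shc3 octamer 2, chr13:51569436-51569465: cagcgtttctgTGAATGGAgcgggtccttg
The next pair are windows of 101 bp around the strongest and the second 154Q summit upstream of Shc3.
Shc3 154Q summit 1, chr13:51569457-51569557: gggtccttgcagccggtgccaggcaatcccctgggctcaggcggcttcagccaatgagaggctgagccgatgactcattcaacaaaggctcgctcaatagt
Shc3 154Q summit 2, chr13:51569727-51569827: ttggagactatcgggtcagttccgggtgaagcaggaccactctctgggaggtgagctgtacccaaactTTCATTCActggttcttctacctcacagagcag
The last is the window around the 154Q summit upstream of Ccnd1.
Ccnd1 154Q summit, chr7:144941362-144941462: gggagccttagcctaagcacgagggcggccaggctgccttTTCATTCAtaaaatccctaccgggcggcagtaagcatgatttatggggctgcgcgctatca

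The WT list held 4588 peaks, the 154Q list 1690 and the 154Q[V591A;S602D] list 918. The 154Q list had been filtered for repeats, so peaks of the other two lists in which repeat-masked bases exceeded 50% were left out before ranking, which left 4432 in WT and 848 in 154Q[V591A;S602D]. Ranks are by −log10 q within each list, where q is the peak caller's adjusted p-value and rank 1 is the strongest peak. A peak at 2% is thus among the strongest 2% of its own list. The lists differ in length and a longer list gives the same site a better percentile, so WT and 154Q were set side by side by rank among the peaks they share. The −log10 q grows with the depth of a library and the depth of 154Q could not be recovered, so −log10 q was read only within a list. In the lists that carry fold enrichment, the number of fragments over a summit (pileup) was recovered, and its median was 30 in WT and 26 in 154Q[V591A;S602D]. Where the control was at its genome-wide level, the weakest called peak had 19 fragments in WT and 18 in 154Q[V591A;S602D]. Binding below this was not detectable at this depth. Where the control was higher, a call needed more fragments.

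Shc3 and Ccnd1 each had 1 peak in WT and 1 in 154Q. Ccnd3 had 2 in each of these lists and Ccnd2 had none in any list. None of the 4 genes had a peak in 154Q[V591A;S602D]. Under the same rule, 35.8% of all protein-coding genes had a peak in WT and 18% had one in 154Q. The share was 11.5% for 154Q[V591A;S602D], and the genes with a peak in both WT and 154Q but not in 154Q[V591A;S602D] were 7.95% of all. The 3 members with that pattern were chosen with it in view, so nothing is read from their number. When a peak had to lie in the gene or within 5 kb upstream of it, the shares fell to 16.3%, 6.94% and 3.77%. Shc3, Ccnd1 and Ccnd3 then had 1 peak each in 154Q, and in WT only Shc3 and Ccnd3 kept 1.

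**Figure D1:**
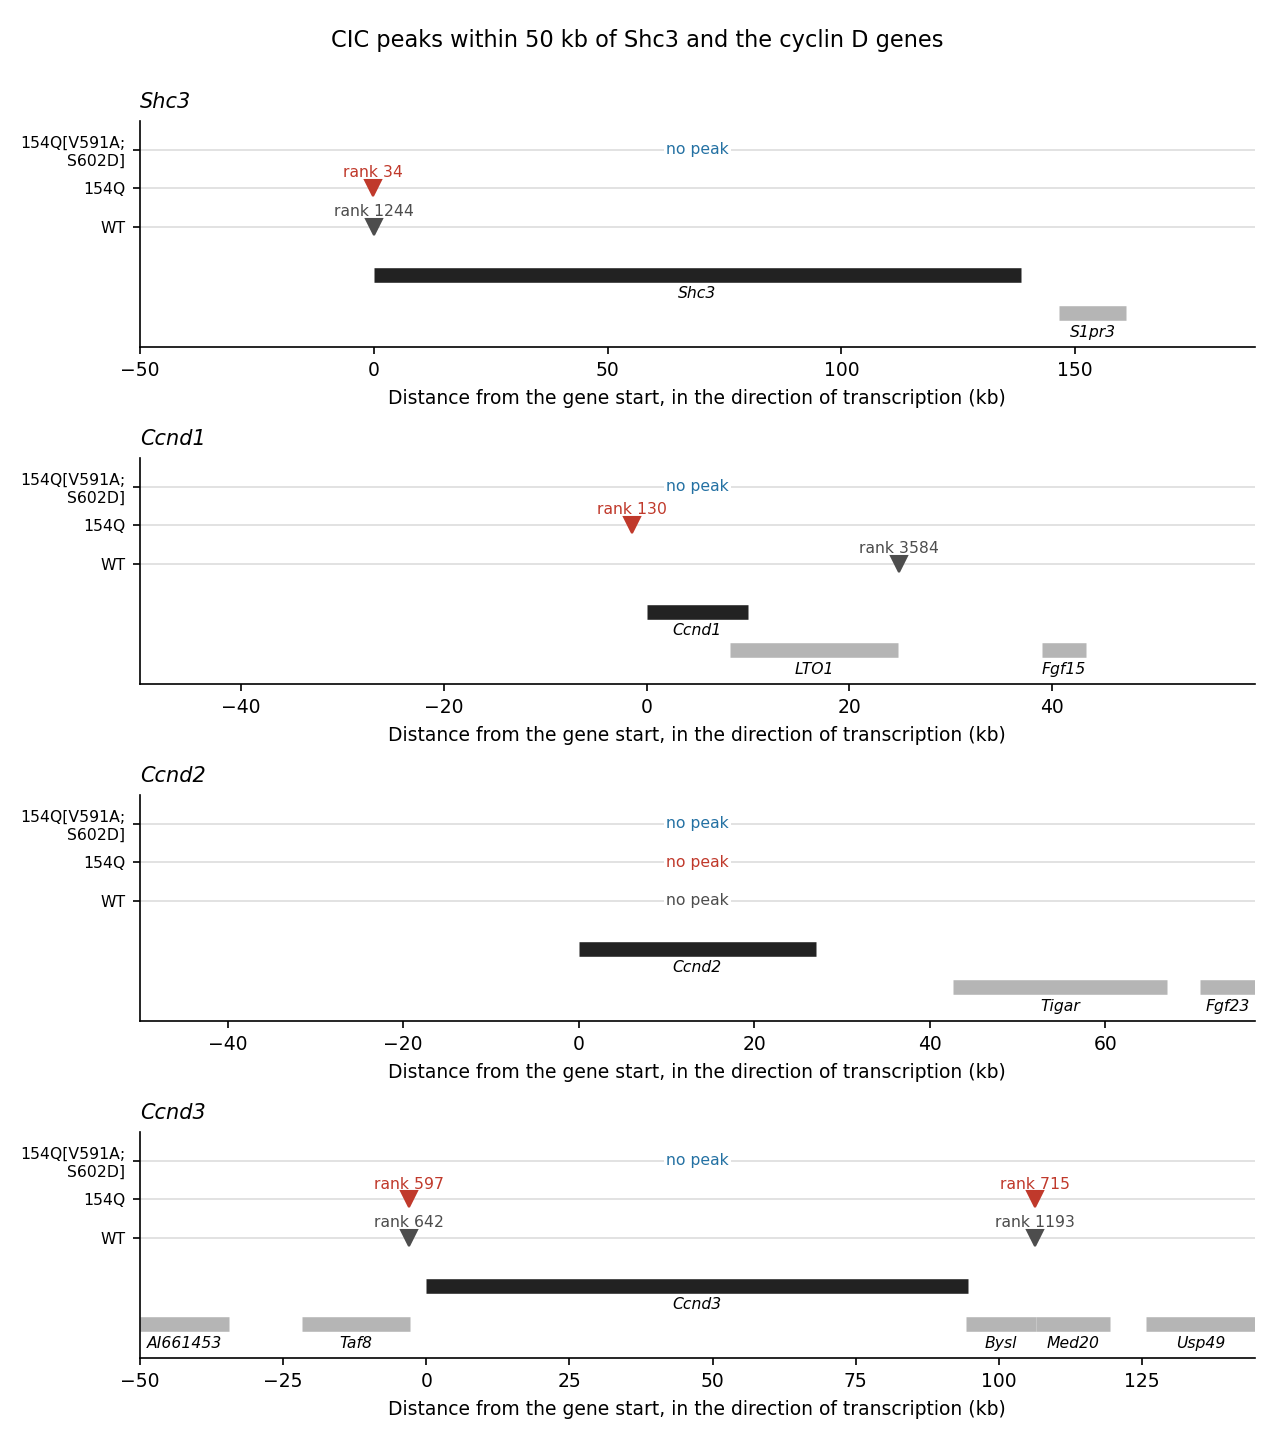
CIC peaks around the 4 genes by distance from the GENCODE gene start in kb, with the gene in black, protein-coding neighbours in grey and 1 row per list. Triangles mark the strongest summit of each peak with its rank. The 154Q peaks at the Shc3 start and upstream of Ccnd1 ranked 34 and 130, and no gene had a peak in 154Q[V591A;S602D].

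Shc3 carried the highest-ranked member peak. The gene lies on the minus strand at chr13:51431041-51569419, and its RefSeq transcript starts slightly further upstream, at 51569451. The WT peak covered chr13:51569389-51569761 (373 bp) and had 2 summits. The stronger, at 51569425, was 6 bp upstream of the GENCODE start and inside the RefSeq first exon. Its −log10 q was 6.98 and its fold enrichment over CIC KO was 2.76. This put the Shc3 peak at rank 1244 of 4432, in the top 28.1% of the WT list. The second WT summit, 120 bp upstream of the start, had a −log10 q of 4.35 and a fold enrichment of 2.04.

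In the 154Q list the Shc3 peak was at rank 34 of 1690, in the top 2.01%. It had 4 summits spread over 571 bp, all upstream of the gene. The strongest stood 88 bp upstream of the GENCODE start with a −log10 q of 72.7. The second stood 358 bp upstream with 26.99. The others, at 592 and 659 bp upstream, were weak, with 3.80 and 4.97. The strongest WT and 154Q summits were 82 bp apart, and the second 154Q summit lay beyond the upstream end of the WT interval. The 154Q signal called as peak thus reached further upstream than the WT peak.

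The difference in rank at Shc3 was among the larger ones between the lists. Of the 1690 peaks in 154Q, 1034 overlapped a WT peak. Ranked among these 1034 alone, the Shc3 peak was at 33 in 154Q and at 649 in WT. The ratio of these ranks was 19.7, and 1 of the 1034 shared peaks had a higher one. This ranking was added after the data were seen. The ratio of the whole-list percentiles was 14.0, and 4 shared peaks (0.387%) exceeded it. Shc3 was chosen with its ranks in view, so its place among the shared peaks is a description and no measure of rarity. Over all shared peaks the percentile was better in 154Q for 304 (29.4%), a share that the different list lengths hold down, and by rank among the shared peaks 519 (50.2%) stood better in 154Q. Of the 34 strongest 154Q peaks, 33 were present in WT and 1 of them had a worse WT rank than Shc3. In 154Q[V591A;S602D], 31 of the 34 were present. Shc3 was 1 of the 3 (8.82%) that were absent, and its nearest peak there was 82.4 kb away at the start of Secisbp2. The floor of 18 fragments given for that list holds only at the genome-wide control level. In the WT call the control at Shc3 was 2.93 times that level, so a call at Shc3 needed more fragments. How many were needed in 154Q[V591A;S602D] was not computed.

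The fragments behind the WT peak show how it was called. The pileup was 55 fragments at the strongest WT summit (95% Poisson interval 41.4 to 71.6, counting error only) and 74 at the second (58.1 to 92.9). These are well above the list median of 30. The control background at the strongest summit was 19.3 fragments, which is 2.93 times the genome-wide level of 6.59, and 87.4% of WT peaks had a lower background. At the second summit it was 35.7 fragments. Ranked by pileup alone the WT peak was in the top 16.3% and ranked by fold enrichment it was at 65.7%. The control background at Shc3 was thus high in the WT call. The 154Q peaks were called against the same merged CIC KO libraries, but pileup and background were not recoverable for 154Q. The part of the control in the rank difference was not tested.

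**Figure D2:**
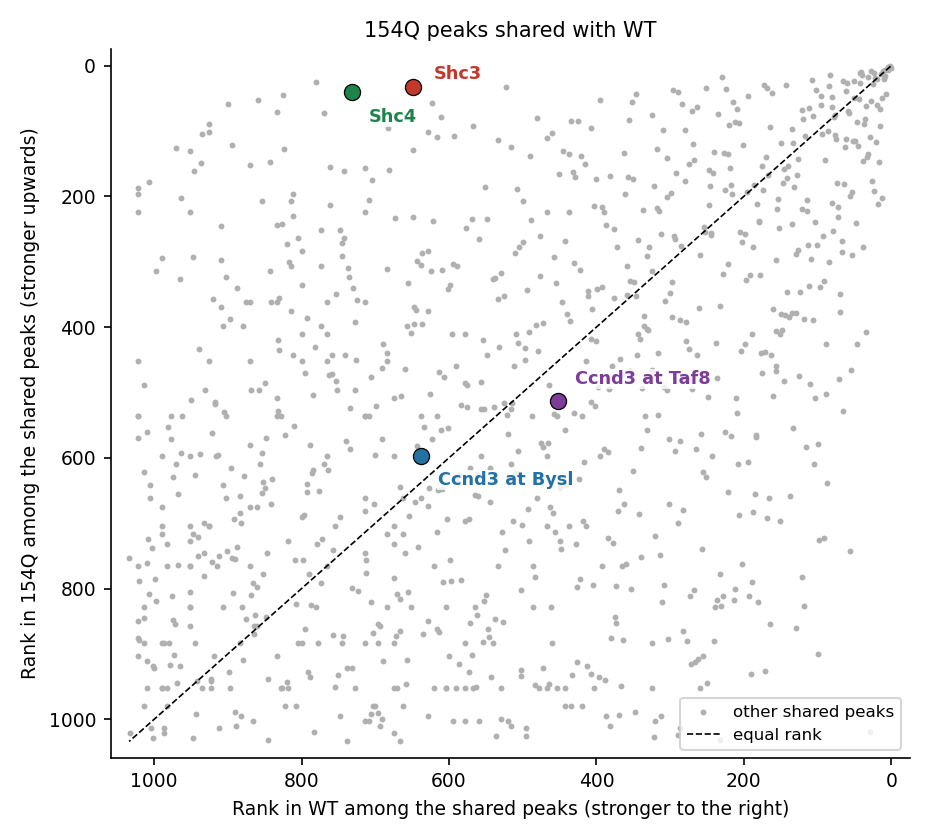
Rank of each of the 1034 shared peaks among these peaks in WT (x) and 154Q (y), with stronger peaks to the right and upwards and the dashed line marking equal ranks. Shc3 (649 in WT and 33 in 154Q) lies far above the line beside the peak at the start of the related gene Shc4, and both Ccnd3 sites lie near the line.

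At Ccnd1, the cyclin D most closely tied to mitogen signalling, the 154Q and WT peaks were at different places. The gene lies on the minus strand at chr7:144929931-144939925. The 154Q summit, at 144941412, was in intergenic sequence 1487 bp upstream of the GENCODE start and 1581 bp upstream of the RefSeq start. Its −log10 q was 20.0, and it was at rank 130 of 1690, in the top 7.69%. Neither other list had a peak at this site.

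The WT peak assigned to Ccnd1 covered chr7:144914985-144915199 (215 bp), 14.9 kb beyond the 3′ end of the gene. Its summit was 42 bp from the start of LTO1, which takes part in maturation of an iron-sulfur protein of the ribosome cycle, and 588 bp from the start of the non-coding gene Bc1. It was a weak peak, with a −log10 q of 1.78, a fold enrichment of 2.77 and rank 3584 of 4432 (80.9%). The pileup was 20 fragments (12.2 to 30.9), 1 above the weakest called pileup of 19, and the background was at the genome-wide 6.59. The WT assignment to Ccnd1 was thus by distance alone, and under the 5 kb upstream rule it was lost.

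Few 154Q peaks of this strength were absent from WT. With ties, 131 peaks in 154Q ranked at or above Ccnd1. Of these, 14 (10.7%) were not in WT, 48 were not in 154Q[V591A;S602D] and 13 were in neither. The cut was set at the Ccnd1 rank, so Ccnd1 is the last of the 14 by construction. An octamer was at the summit of 5 of the 14. Over the whole list, 656 peaks in 154Q were not in WT. The Ccnd1 site is therefore one of the stronger 154Q peaks without a WT counterpart, but a WT site with fewer than about 19 fragments would not have been listed.

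**Figure D3:**
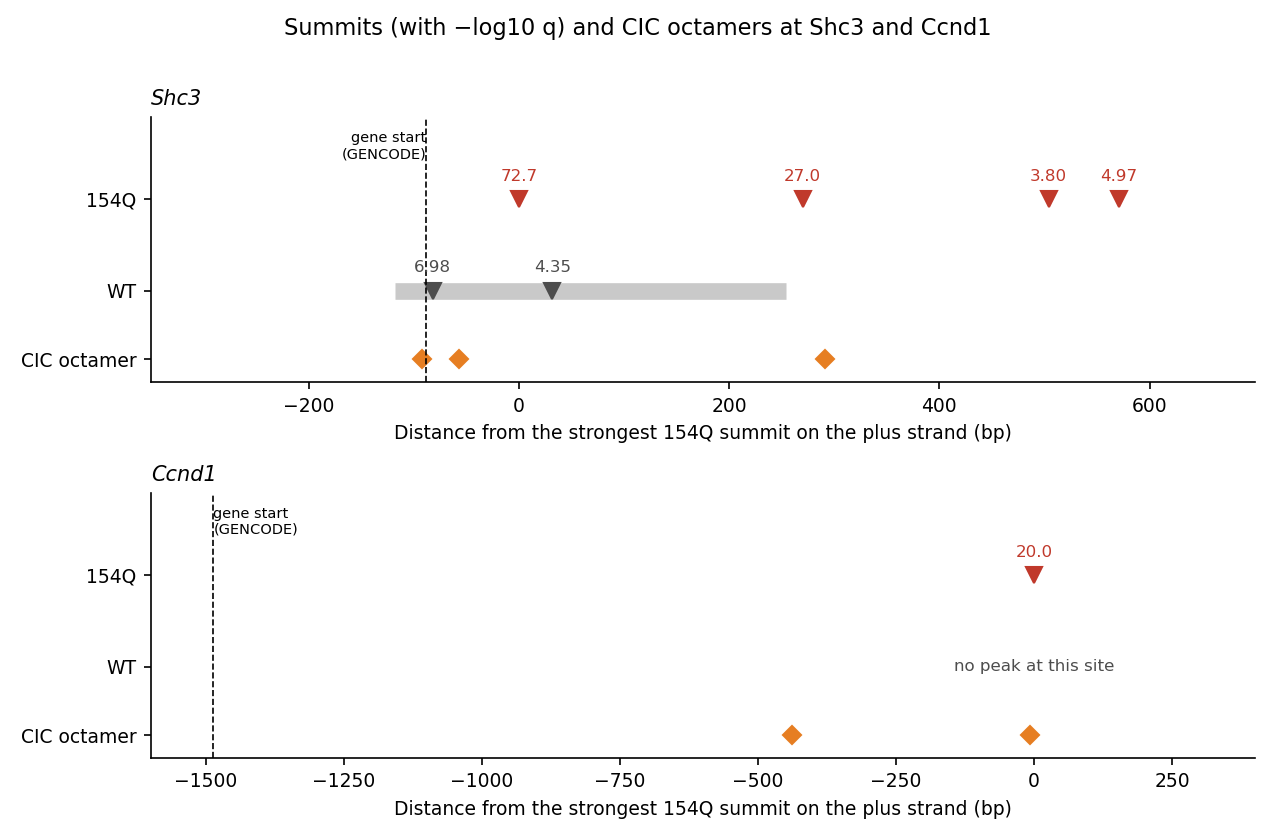
Summits at Shc3 and upstream of Ccnd1 by distance in bp from the strongest 154Q summit, with −log10 q above each triangle, the WT peak interval as a grey bar, CIC octamers within 2 kb of a start site as diamonds and the gene start as a dashed line. At Shc3 the WT summit stood over the octamer pair at the start and the 154Q summits extended upstream. At Ccnd1 the 154Q summit stood almost on an octamer where WT had no peak.

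Both Ccnd3 sites lay at the starts of other genes, and their ranks among the shared peaks were similar in WT and 154Q. Ccnd3, the cyclin D best known from lymphoid cells, lies on the plus strand at chr17:47505051-47599691. The first site was in an intron of Taf8, which encodes a subunit of the general transcription factor TFIID, upstream of Ccnd3. The WT summit was 2966 bp upstream of Ccnd3 and 187 bp from the Taf8 start, with a −log10 q of 11.6, a fold enrichment of 3.65 and a pileup of 54 fragments (40.6 to 70.5) over a background of 14.1. It was at rank 642 (14.5%). The 154Q summit was 41 bp away with a −log10 q of 5.39 and rank 597 (35.3%).

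The second Ccnd3 site was 11.7 kb beyond the 3′ end of the gene, in an untranslated exon of Bysl. Bysl encodes bystin, a factor of small ribosomal subunit assembly, and the start of Med20, which encodes a Mediator subunit, was 172 bp from the WT summit. The WT summit had a −log10 q of 7.20, a fold enrichment of 4.09, a pileup of 30 fragments (20.2 to 42.8) at the genome-wide background of 6.59, and rank 1193 (26.9%). The 154Q summit was 2 bp away with a −log10 q of 4.39 and rank 715 (42.3%). Among the 1034 shared peaks, the Taf8 site was at 513 in 154Q and 452 in WT, and the Bysl site was at 597 in 154Q and 638 in WT. The ratios of WT to 154Q rank were 0.881 and 1.07, against a median of 1.0 over all shared peaks.

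Ccnd2, the cyclin D expressed in granule neuron precursors of the cerebellum, had no peak in its window of 127.0 kb in any list. The gene lies on the minus strand at chr6:127125162-127152193. The nearest peaks were 185 kb away in WT, at Rad51ap1, 539 kb away in 154Q[V591A;S602D], at Kcna5, and 828 kb away in 154Q, at Tspan9. Outside the 50 kb limit, the nearest 154Q peak to Ccnd3 was at 88.5 kb (Tomm6, −log10 q 1.44), and the nearest to Shc3 in both WT and 154Q was at 208 kb (Sema4d).

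**Figure D4:**
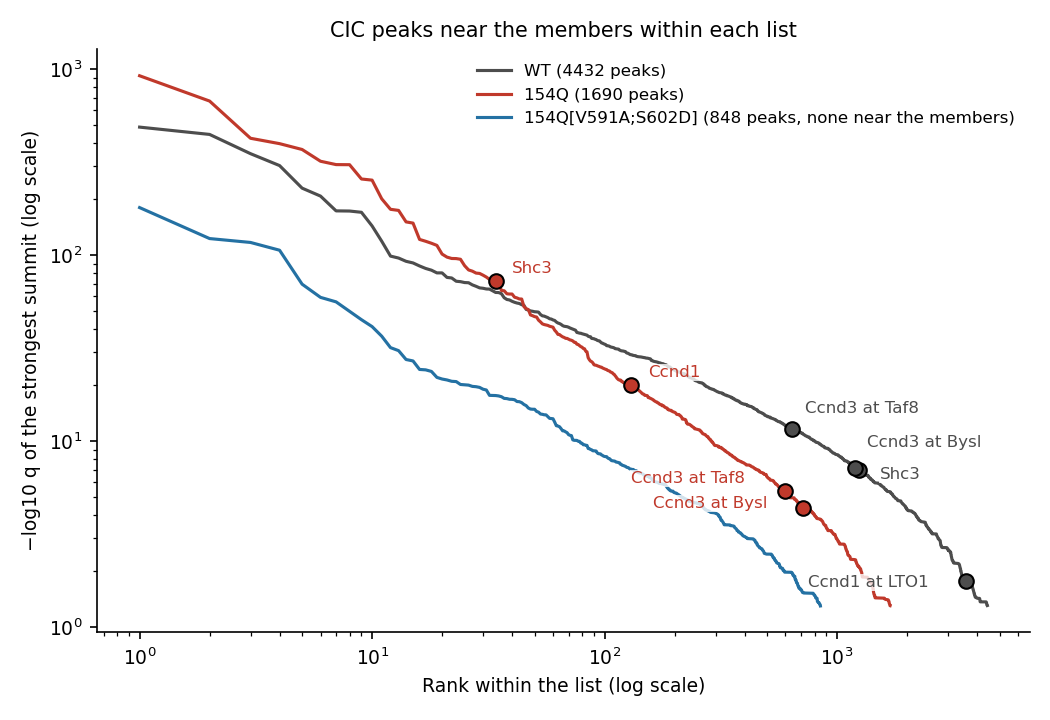
The −log10 q of every peak against its rank in each list, on log axes, with the member peaks as circles. The 154Q peaks of Shc3 (rank 34) and Ccnd1 (rank 130) stand in the steep upper part of their list, and the best WT rank of a member peak is 642 (Ccnd3 at Taf8).

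Octamers were found at Shc3 and upstream of Ccnd1 but not at the other 3 sites. At Shc3 the strongest WT summit had 2 octamers within 50 bp, TGAATGAA centred 10.5 bp from it and TGAATGGA centred 25.5 bp from it, both on the plus strand and printed above as octamers 1 and 2. Only 0.226% of WT peaks (10) had 2 or more octamers that close, and 2.39% had any. The strongest 154Q summit at Shc3 had none within 50 bp, although the same pair lay within 100 bp. The second 154Q summit had a TGAATGAA on the minus strand centred 21.5 bp from it, which is the capital stretch in the summit 2 sequence and lies outside the WT interval.

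The Ccnd1 154Q summit stood almost on a TGAATGAA of the minus strand, centred 6.5 bp away. In the 154Q list 6.57% of peaks had an octamer within 50 bp of the strongest summit and 7.28% within 50 bp of any summit. No octamer lay within 100 bp of the LTO1, Taf8 or Bysl summits. The 4 windows held 138 octamers, 49 at Shc3, 29 at Ccnd1, 25 at Ccnd2 and 35 at Ccnd3, and 4 of the 138 were within a member peak or 50 bp of its summits. Within 2 kb of an annotated start there were 3 octamers at Shc3, 2 at Ccnd1, 1 at Ccnd2 and 0 at Ccnd3. The one at Ccnd2, TCAATGAA, lay 572.5 bp from a start and had no peak. That start is internal to the gene, and Ccnd2 has 0 octamers within 2 kb of its gene start. Across the genome 48.5% of protein-coding genes have an octamer within 2 kb of the gene start.

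The shared peaks were also read by octamer, as a description without a test, since the peaks of a list are not replicates. Of 84 shared peaks with an octamer within 50 bp of a 154Q summit, 67 (79.8%, 95% Wilson interval 70.0 to 87.0%, counting error over peaks only) had a better rank among the shared peaks in 154Q than in WT. Of the 950 without, 452 (47.6%, 44.4 to 50.8%) did. This split uses 154Q summits. By octamers at WT summits the shares were 70.0% of 80 (59.2 to 78.9%) and 48.5% of 954 (45.4 to 51.7%). Shc3 had an octamer at a summit in both lists, and the Taf8 and Bysl sites had none in either.

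The linked genes were read with the same rule. Of 10 genes for SHC adaptors and their partners on the way to RAS, 7 had a WT peak within 50 kb, 6 had a 154Q peak and 3 had a peak of 154Q[V591A;S602D]. With the 5 kb upstream rule the numbers were 3, 3 and 0. Of 20 partners of D-type cyclins at the G1/S transition, 10, 6 and 1 had a peak, and 6, 2 and 0 under the 5 kb rule. These shares stand beside backgrounds of 35.8%, 18% and 11.5%, and of 16.3%, 6.94% and 3.77%.

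Shc4, another SHC adaptor, had the best 154Q rank of the first list, and the peak at its start resembled Shc3 in its ranks. The gene lies on the minus strand at chr2:125627447-125724148. In 154Q its strongest summit was 6 bp from the start with a −log10 q of 58.1, at rank 44 (2.60%). The WT peak at the same start had its summit 241 bp away with a −log10 q of 5.86, at rank 1527 (34.5%). Among the shared peaks it was at 41 in 154Q and 732 in WT, a ratio of 17.9 that 3 of the 1034 exceeded. A second peak inside Shc4, 47 bp from the start of Eid1 in 154Q, did not share this. It was at rank 1581 in 154Q and 4026 in WT, with a percentile ratio of 0.971. No peak was listed for Shc4 in 154Q[V591A;S602D]. The strongest Shc4 summit of 154Q had 2 octamers within 50 bp, as 17 peaks (1.01%) of that list did. The WT summit at the Shc4 start had 0 that close, although the WT interval, chr2:125723856-125724196, covered both octamers. At Shc3 it was the WT summit that had the pair that close and the strongest 154Q summit that had 0. The Shc4 pair is printed here because it matches the pair at the Shc3 start in spelling, order and strand.
Shc4 octamer 1, chr2:125724101-125724130: tgaaatttttaTGAATGAActttgccgaat
Shc4 octamer 2, chr2:125724155-125724184: taataaatctgTGAATGGAgccgagaatag
Their first bases were 54 bp apart at Shc4 and 36 bp apart at Shc3, and the bases around the octamers differed. This likeness was noticed after the values were seen.

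The best-ranked 154Q peaks within 50 kb of Shc1, Shc2 and Ptpn11, which encodes the phosphatase SHP2, ranked at 558, 715 and 845 with no octamer. The start nearest each was that of Pygo2 at 22 bp, Cdc34 at 774 bp and Rpl6 at 18 bp. Among the cyclin partners, the peak assigned to E2f1, a transcription factor of S-phase entry, ranked at 50 in 154Q (2.96%) and 218 in WT (4.92%), but lay 15668 bp from the gene and 3055 bp from the start of Necab3. It had 1 octamer. The Cdk4 peak, 323 bp from the start of this catalytic partner of the D-type cyclins, was at rank 491 in 154Q (29.1%) and 1750 in WT (39.5%), with no octamer. The peak assigned to Ccne1, the cyclin that follows the D type in G1, lay 12907 bp from the gene in 154Q, at rank 484 (28.6%), and 12960 bp from it in WT, at rank 766 (17.3%). For Cdkn1a, an inhibitor of cyclin-dependent kinases, the best-ranked peaks were at different sites, 2446 bp outside the gene in 154Q at rank 1370 (81.1%) and inside it in WT at rank 2232 (50.4%). The genes above were named by their 154Q rank. Among those with a WT peak and none in 154Q, Cdk2, another kinase of the G1/S transition, had a peak 1478 bp from the gene at rank 78 in WT (1.76%), 197 bp from the start of Rab5b. Gab2, a docking adaptor, had one 23265 bp from the gene at rank 203 in WT (4.58%), 116 bp from the start of Kctd21, and one at rank 411 in 154Q[V591A;S602D]. Both were chosen after their values were seen. These percentiles carry the list lengths, and no change is read from them.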

How the data were processed

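The authors aligned reads of 15 mice by antibody with Bowtie2 (2.3.4.1) to mm10 (GRCm38), kept fragments under 120 bp for CIC, removed blacklisted regions (bedtools 2.29.1), merged replicates by genotype and called peaks with MACS at q 0.05 against merged CIC KO libraries. For WT and for 154Q[V591A;S602D], the deposited lines carry a fold enrichment (a ratio of pileup plus 1 to background plus 1), a −log10 p-value and a −log10 q-value. For 154Q, the authors deposited single-base summits with the −log10 q-value alone. A deposited whole-number score was not used. H3K27ac and IgG samples were not analysed here.

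Lines of a peak were collapsed to the summit with the highest −log10 q on chromosomes 1 to 19, X and Y. A site was shared when intervals overlapped by at least 1 bp, where a 154Q peak spanned its summits. Shared peaks were ranked among themselves by their within-list ranks. Pileup was solved from fold enrichment and the Poisson −log10 p (Python 3.11.15, scipy 1.17.1, pysam 0.24.0), and the solver was tested on simulated data. Genes were from GENCODE M21 and RefSeq, both on GRCm38. Ccnd3 was the member matched in the RefSeq promoter table. Shares have 95% Wilson intervals. Named genes were the members, the gene with the start nearest each summit and, from each linked list, up to 4 genes by rank in 154Q. Bc1, Med20 and the genes nearest peaks outside the windows were added after the values were seen. Members and lists were chosen with earlier results of these data known.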

Additional observations from a re-analysis of the deposited data

How the results depend on the processing

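Of the alternatives run on the counts, ranks and octamers, 28 values stayed near those reported and 28 moved, where a count counted as near within 1.5 times and a percentile within the 95% binomial interval of its rank in the list. The number of WT peaks around the 4 genes went from 4 to 2 with a window of 5 kb, 2 with the gene body and 5 kb upstream, and 1 when each list was cut to its strongest 848 peaks. The 154Q number went from 4 to 7 with every summit counted (6 with 100 kb, within that limit), and the 154Q[V591A;S602D] number from 0 to 1 with 100 kb. Ranked by fold enrichment, the WT peaks were at 65.7% (Shc3), 61.8% (Ccnd1 at LTO1), 23.8% (Taf8) and 14.1% (Bysl), and by pileup, chosen after seeing the data, at 16.3%, 89.6%, 17.0% and 48.0%. Ranked among the 1034 shared peaks, also chosen after seeing the data, the Shc3, Taf8 and Bysl sites were at 62.8%, 43.7% and 61.7% in WT and at 3.19%, 49.6% and 57.7% in 154Q. The 154Q peaks with an octamer went from 1 to 2 within 100 bp, with 1 mismatch outside AATG, or, chosen after seeing the data, at any summit. With the 5 kb upstream rule the SHC list went from 7, 6 and 3 genes to 3, 3 and 0, and the cyclin partner list from 10, 6 and 1 to 6, 2 and 0. The 3 sites shared by WT and 154Q were found under both other overlap rules.

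No paired analysis was possible because the lists analysed here were called on merged libraries, and leaving out 1 animal at a time was not run for the same reason. Values of single animals were not used here. A merged list weights each animal by its reads. At the genome-wide control level, pileup limits WT and 154Q[V591A;S602D] to sites of about 19 and 18 fragments or more. The limit is higher where the control is higher, as at Shc3, and the 154Q depth is unknown.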
